A study of Mus musculus with 2 samples.

Results

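The interferon-stimulated genes are the genes that cells switch on when an interferon binds its receptor, and 32 of them were followed here in newborn mouse chondrocytes and dermal fibroblasts. They were taken by gene symbol from a fixed list, drawn up with earlier results of these data known. Each of the 32 symbols matched 1 of the 24421 rows of the deposited count table. The data comprised 1 RNA-Seq library of primary chondrocytes (rib cartilage) and 1 RNA-Seq library of primary dermal fibroblasts (skin). The chondrocytes were freed from the ribs with collagenase in the warm and used within a few passages, while the fibroblasts were freed from the dorsal skin with collagenase in the cold. No agent, allele or interferon treatment is given for either group, and the strain, sex and number of mice behind each library are not stated in the labels. Cell type, isolation and library therefore cannot be told apart. With a lone library on each side, the differences below have no replicate check, and no p-value was computed. The intervals printed cover counting error only.

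Interferons are secreted proteins that warn cells of infection. Type I interferons (alpha and beta) act through the receptor pair IFNAR1 and IFNAR2 and the kinases JAK1 and TYK2, which activate the transcription factor complex ISGF3, with STAT2 and IRF9 among its subunits. ISGF3 binds the interferon-stimulated response element (ISRE). Type II interferon (gamma) acts through IFNGR1, IFNGR2, JAK1 and JAK2, and its response is read at the gamma-activated site (GAS). Resting fibroblasts are known to keep a low level of many of these transcripts without infection. The study used this pair of libraries to narrow a set of candidate transcription factors to those expressed unequally in chondrocytes, with dermal fibroblasts as the control.

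The libraries held 18788599 (chondrocytes) and 17563724 (dermal fibroblasts) counts. Counts were scaled with edgeR TMM factors, a floor of 3 counts was applied to every fold, and folds are written as dermal fibroblasts over chondrocytes unless stated. The cell type labels were checked first. *Col2a1* had 1447098 counts in chondrocytes against 0 in dermal fibroblasts, *Acan* had 148105 and 35, and *Sox9* had 5045 and 342. All 9 chondrocyte markers were over 2-fold higher in chondrocytes. Of 9 fibroblast markers, 8 were over 2-fold higher in dermal fibroblasts, *Col1a1* with 39143 and 322379 counts, and only *Lum* was not. *Actb* had 45139 and 50469 counts.

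Many members carry the ISRE core close to their transcription start. RefSeq promoters (GRCm38.p6, 250 bases before to 50 bases after the transcription start) were found for 26 of the 32 genes. The stretches below were chosen from those that hold an ISRE core before the start. They are from *Ifit3*, *Ifit1*, *Isg15*, *Stat2*, *Oas1a* and, of the GTPases, *Igtp*, *Irgm1* and *Gbp2*. Capitals mark the core GAAANNGAAA or its reverse complement TTTCNNTTTC, and each sequence runs 5′ to 3′ on the strand of its gene.
Ifit3, plus strand, chr19:34583382-34583441: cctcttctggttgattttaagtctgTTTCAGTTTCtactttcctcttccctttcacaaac
Ifit1, plus strand, chr19:34640779-34640838: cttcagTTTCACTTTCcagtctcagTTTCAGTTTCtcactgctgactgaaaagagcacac
Isg15, minus strand, chr4:156200850-156200909: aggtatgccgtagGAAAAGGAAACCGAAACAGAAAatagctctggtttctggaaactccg
Stat2, plus strand, chr10:128270251-128270310: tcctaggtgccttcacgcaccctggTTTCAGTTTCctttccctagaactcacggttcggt
Oas1a, minus strand, chr5:120907526-120907564: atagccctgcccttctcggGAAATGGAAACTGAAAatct
Igtp, plus strand, chr11:58199497-58199555: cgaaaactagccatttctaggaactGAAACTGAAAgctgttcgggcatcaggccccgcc
Irgm1, minus strand, chr11:48871421-48871469: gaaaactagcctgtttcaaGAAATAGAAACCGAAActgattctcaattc
Gbp2, plus strand, chr3:142620579-142620638: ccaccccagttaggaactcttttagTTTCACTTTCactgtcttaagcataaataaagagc

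The interferon-stimulated genes were higher in dermal fibroblasts as a family. All 32 had more scaled counts there, and 31 of 32 (96.9%) were over 2-fold higher, against 16.2% of the 14291 genes with at least 10 counts in either library. None of the 32 was over 2-fold higher in chondrocytes, against 11.8% of those genes. At a fold over 4 there were 26 (81.2%) of the members, against 6.50% of all genes, and 29 (90.6%) had an interval wholly above 2-fold, against 10.8% of all genes. The median fold of the 32 was 8.07 (log2 3.01), and the median log2 fold of all genes was 0.0035. By role, the median fold was highest for the IFIT genes (26.4) and lowest for the RNA sensors (4.43). Together the 32 genes had 3950 counts in chondrocytes against 25794 in dermal fibroblasts, which is 210 and 1469 CPM (counts relative to the library total). All 32 passed the filter of 10 counts, 3 of them (*Ifit3*, *Oas2* and *Mx1*) only through dermal fibroblasts.

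The libraries differed in how well the family was sampled. In chondrocytes the 32 counts ranged from 2 to 701 with a median of 61, and 15 of them were under 50. In dermal fibroblasts they ranged from 17 to 4186 with a median of 535, and 30 of them were at least 100. The folds of the genes with few chondrocyte reads therefore have the wider intervals.

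**Figure D1:**
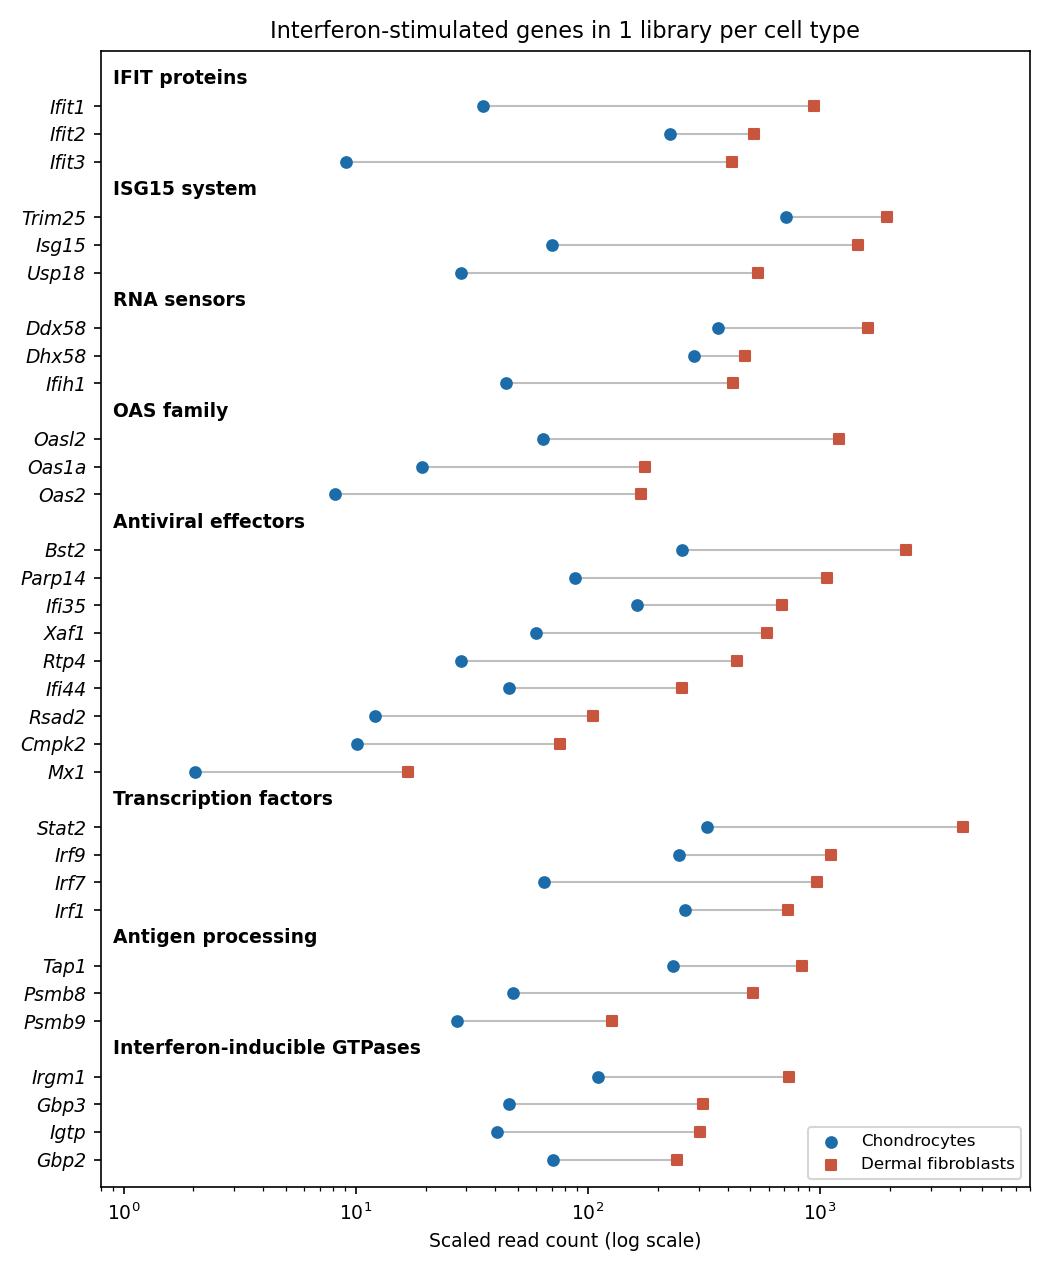
Scaled read count (log axis) of each of the 32 genes in the chondrocyte library (circles) and the dermal fibroblast library (squares), grouped by role, with a grey line joining both values of a gene. Every square lies to the right of its circle, and *Dhx58* (282 and 482 counts) and *Ifit2* (223 and 525 counts) have the shortest lines.

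Of the transcription factors that carry the signal, *Stat2*, a subunit of ISGF3, had 323 counts in chondrocytes against 4186 in dermal fibroblasts. It was 12.6-fold higher (interval 11.3 to 14.2), with the most counts of the 32 genes in dermal fibroblasts. *Irf9*, its DNA-binding partner, had 244 and 1133 counts and was 4.52-fold higher (interval 3.93 to 5.21). *Irf7*, which drives the induction of interferon alpha, had 64 and 981 counts and was 14.9-fold higher (interval 11.6 to 19.5). *Irf1*, a factor of the response to interferon gamma, had 258 and 737 counts and was 2.78-fold higher (interval 2.41 to 3.22). The intervals of *Stat2* and *Irf7* overlapped each other and lay above those of *Irf9* and *Irf1*.

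The IFIT proteins bind foreign RNA and block its translation, and their genes held both the largest folds of the family and 1 of the smallest. *Ifit3* had 9 counts in chondrocytes against 424 in dermal fibroblasts and was 45.9-fold higher (interval 23.9 to 101). *Ifit1* had 35 and 950 counts and was 26.4-fold higher (interval 18.9 to 38.2). *Ifit2* had 223 and 525 counts and was 2.29-fold higher, with an interval (1.96 to 2.69) that reached below 2-fold. The IFIT genes lie side by side on chromosome 19, with 6584 bp between *Ifit2* and *Ifit3* and 51906 bp between *Ifit3* and *Ifit1*. The intervals of *Ifit3* and *Ifit1* overlapped each other and lay above that of *Ifit2*. *Ifit2* is the IFIT gene for which no ISRE core was found in the promoter window, and whether this bears on its fold was not tested.

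The ISG15 system attaches a ubiquitin-like protein to other proteins. *Isg15*, the modifier itself, had 69 counts in chondrocytes against 1470 in dermal fibroblasts and was 20.7-fold higher (interval 16.3 to 26.8). *Usp18*, which removes ISG15 and also restrains the type I receptor, had 28 and 545 counts and was 18.95-fold higher (interval 12.97 to 28.8). *Trim25*, a ubiquitin ligase that activates RIG-I, had the most chondrocyte reads of the family, with 701 and 1974 counts, and was 2.74-fold higher (interval 2.51 to 2.99). The folds of the modifier and its protease lay close together, and the ligase lay apart from them.

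The RIG-I-like receptors detect viral RNA in the cytoplasm. *Ifih1* (MDA5) had 44 counts in chondrocytes against 428 in dermal fibroblasts and was 9.47-fold higher (interval 6.93 to 13.2). *Ddx58* (RIG-I) had 357 and 1623 counts and was 4.43-fold higher (interval 3.94 to 4.98). *Dhx58* (LGP2), which tunes the other two, had 282 and 482 counts and was 1.66-fold higher (interval 1.43 to 1.93). It was the 1 member under 2-fold, and its whole interval lay above equality. The member just above the threshold was *Ifit2*.

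The OAS proteins make oligoadenylates that activate RNase L. *Oas2* had 8 counts in chondrocytes against 172 in dermal fibroblasts and was 20.9-fold higher (interval 10.4 to 49.3). *Oasl2*, an OAS-like gene, had 63 and 1225 counts and was 18.9-fold higher (interval 14.7 to 24.8). *Oas1a* had 19 and 179 counts and was 9.17-fold higher (interval 5.70 to 15.6). The interval of each overlapped that of at least 1 of the others.

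Of the 9 antiviral effectors, all were over 4-fold higher in dermal fibroblasts with the main scaling and floor, against 6.50% of all genes with at least 10 counts. The intervals of *Ifi35*, *Cmpk2* and *Mx1* reached below 4-fold, and with *Actb* scaling *Ifi35* was 3.85-fold higher. *Bst2* (tetherin, which holds budding virus at the cell surface) had 252 counts in chondrocytes against 2366 in dermal fibroblasts and was 9.14-fold higher (interval 8.02 to 10.5). *Rtp4*, a transport chaperone, had 28 and 446 counts and was 15.5-fold higher (interval 10.6 to 23.6). *Parp14*, an ADP-ribosyltransferase, had 87 and 1084 counts and was 12.1-fold higher (interval 9.74 to 15.3). *Xaf1*, an antagonist of the apoptosis inhibitor XIAP, had 59 and 599 counts and was 9.88-fold higher (interval 7.56 to 13.1). The intervals of *Rtp4*, *Parp14* and *Xaf1* overlapped. *Rsad2* (viperin) and *Cmpk2*, a nucleotide kinase that modifies the precursor viperin uses, are neighbours on chromosome 12. *Rsad2* had 12 and 107 counts (8.68-fold, interval 4.77 to 17.3) and *Cmpk2* had 10 and 77 (7.50-fold, interval 3.86 to 16.3). *Ifi44* had 45 and 257 counts (5.56-fold, interval 4.04 to 7.81), and *Ifi35* had 161 and 693 (4.19-fold, interval 3.53 to 5.01). *Mx1*, a dynamin-like GTPase whose gene is disrupted in many laboratory strains, had 2 counts in chondrocytes against 17 in dermal fibroblasts. The ratio was 8.28 with an interval from 1.96 to 73.9, and 5.52 with the chondrocyte count set to 3.

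**Figure D2:**
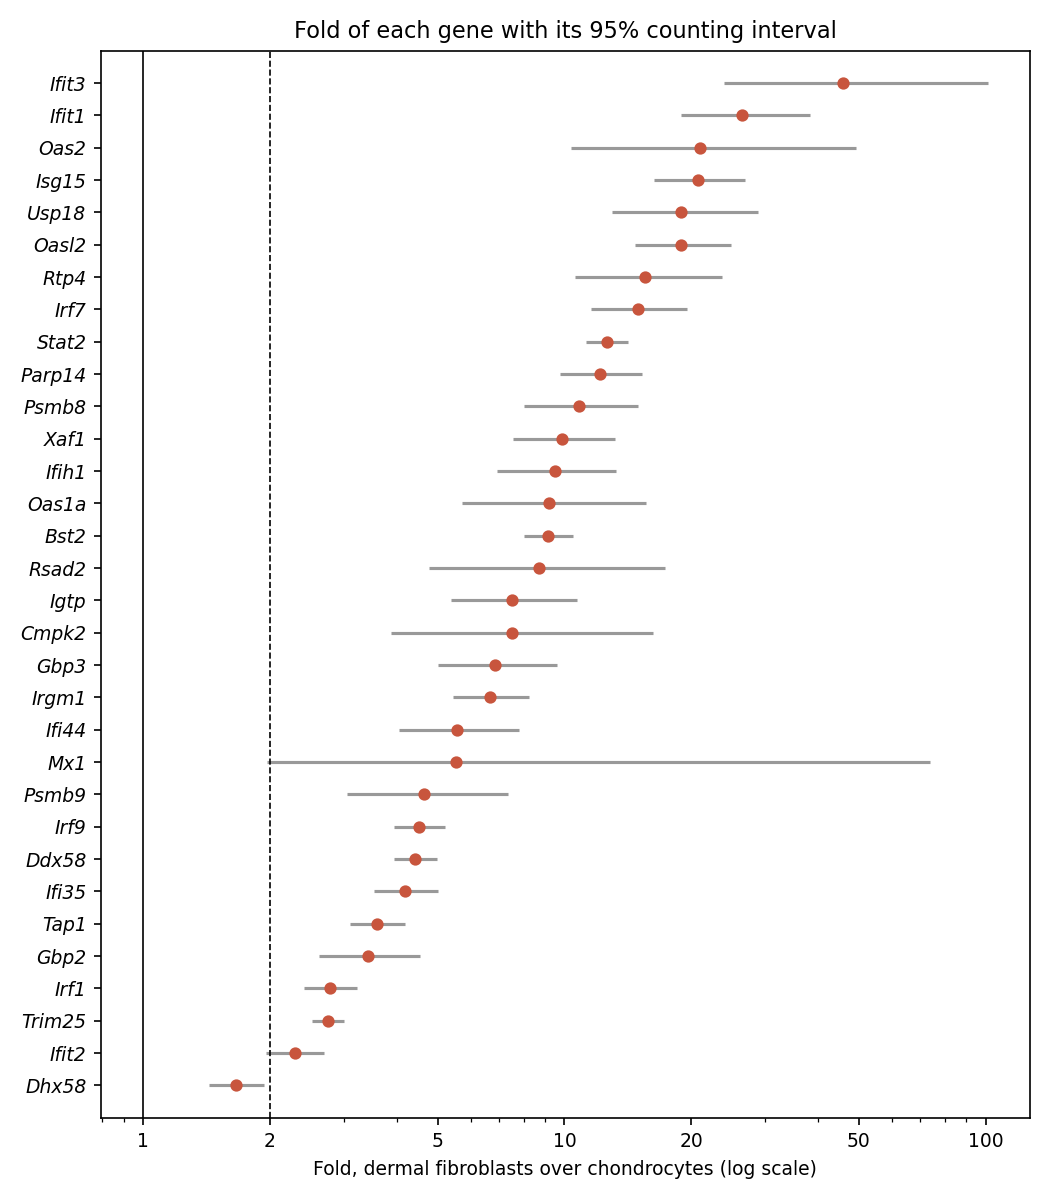
Fold of each of the 32 genes, dermal fibroblasts over chondrocytes (log axis), as a point with its 95% counting interval as a line (*Mx1* is drawn at 5.52, with its count of 2 set to 3). The solid line marks equality and the dashed line 2-fold; *Dhx58* lies below the dashed line, the intervals of *Ifit2* and *Mx1* (1.96) cross it, and *Ifit3* is highest at 45.9.

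The genes that load peptides onto MHC class I were higher as well. *Psmb8*, a catalytic subunit of the immunoproteasome, had 47 counts in chondrocytes against 523 in dermal fibroblasts and was 10.8-fold higher (interval 8.03 to 14.9). *Psmb9*, another such subunit, had 27 and 129 counts and was 4.65-fold higher (interval 3.05 to 7.33). *Tap1*, a subunit of the peptide transporter, had 229 and 845 counts and was 3.59-fold higher (interval 3.10 to 4.18). The 3 genes stand next to each other on chromosome 17, with 225 bp between *Psmb9* and *Tap1* and 969 bp between *Tap1* and *Psmb8*. The interval of *Psmb8* lay above those of its neighbours.

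The interferon-inducible GTPases act at membranes in the defence against intracellular pathogens. *Igtp* had 40 counts in chondrocytes against 308 in dermal fibroblasts (7.50-fold, interval 5.38 to 10.7), *Gbp3* had 45 and 317 (6.86-fold, interval 5.01 to 9.59) and *Irgm1* had 109 and 746 (6.66-fold, interval 5.44 to 8.22). These differed by less than their counting error. *Gbp2* had 70 and 246 counts and was lower than they were, at 3.42-fold (interval 2.61 to 4.53). Genes known mainly for their response to interferon gamma (*Irf1*, the antigen-processing genes and the GTPases, a grouping made after the values were seen) had a median fold of 5.57 over 8 genes, and the other 24 had a median of 9.32. The ranges of both groups overlapped, from 2.78 to 10.8 and from 1.66 to 45.9.

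To compare levels between genes, counts were divided by exon length (RPKM, reads per kilobase of exon relative to the TMM-scaled library size, with GENCODE vM1 lengths for 31 of the 32 genes). In dermal fibroblasts the highest levels were those of *Bst2* (168 RPKM), *Isg15* (106) and *Stat2* (51.6). In chondrocytes they were those of *Bst2* (18.4 RPKM), *Trim25* (6.79) and *Ifi35* (5.20). The median of the members was 0.993 RPKM in chondrocytes and 8.38 RPKM in dermal fibroblasts, while the median of all 13047 genes with a length and at least 10 counts was 5.57 and 5.74 RPKM. Among those genes *Isg15* stood at percentile 47.7 in chondrocytes and 96.8 in dermal fibroblasts, *Stat2* at 42.8 and 92.6, *Bst2* at 78.8 and 98.1, and *Ifit3* at 9.11 and 70.9. Of the 31 genes, 2 were above the median gene in chondrocytes and 22 in dermal fibroblasts. The order of levels was partly shared, with a Spearman's rho of 0.713 across the 31 genes, which share the same pair of libraries and are not replicates.

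Some of these counts rest on reads that paralogs could share. Over 75-base windows, the length of the reads, 23 of the 32 longest coding transcripts shared no window with a transcript of another gene. *Ifit3* shared 41.1% of its windows with *Ifit3b* and *Oas1a* 47.2% with *Oas1g*, so the counts of these genes are uncertain. *Ifit3b* itself had 6 and 106 counts and *Oas1g* 1 and 30, higher in dermal fibroblasts like their partners. For the other 7 genes the share was at most 6.11%. In RefSeq the spans of *Stat2* and *Apof* (4 and 1 counts), *Ifit1* and *Ifit1bl1* (2 and 4) and *Rtp4* and *Masp1* (101 and 767) overlap, so reads in the overlap could be assigned to either gene. The overlap is 753 bp for *Stat2* and 1022 bp for *Rtp4*, while for *Ifit1* it is 9121 bp, its whole span.

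The promoters were then searched on both strands for the ISRE core GAAANNGAAA and the GAS core TTCNNNGAA, which is its own reverse complement. The ISRE core was found in 13 of 26 members with a promoter, against 3.99% of 27025 genes with a promoter of the same length and 3.52% of those with at least 10 counts. It lay wholly before the start in 11 of them, as in the stretches above, and after the start in *Ddx58* and *Ifih1*. In 7 members there was more than 1 match, overlapping in *Isg15*, *Oas1a*, *Irgm1*, *Gbp3* and *Bst2*. In *Bst2* an ISRE match also overlapped a GAS match. The GAS core was found in 7 members (26.9%), among them *Irf1* and *Psmb8*, against 9.55% of all genes. The 13 members with an ISRE core had a median fold of 9.14 and the 13 without had 4.65, with overlapping ranges (log2 1.77 to 5.52 and 1.20 to 4.24). For the GAS core the medians were 7.50 with and 7.50 without. Among the 366 other genes with an ISRE core and at least 10 counts, 92 (25.1%) were over 2-fold higher in dermal fibroblasts, and their median log2 fold was 0.09. A match is a description of the letters in the window, and binding was not measured.

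**Figure D3:**
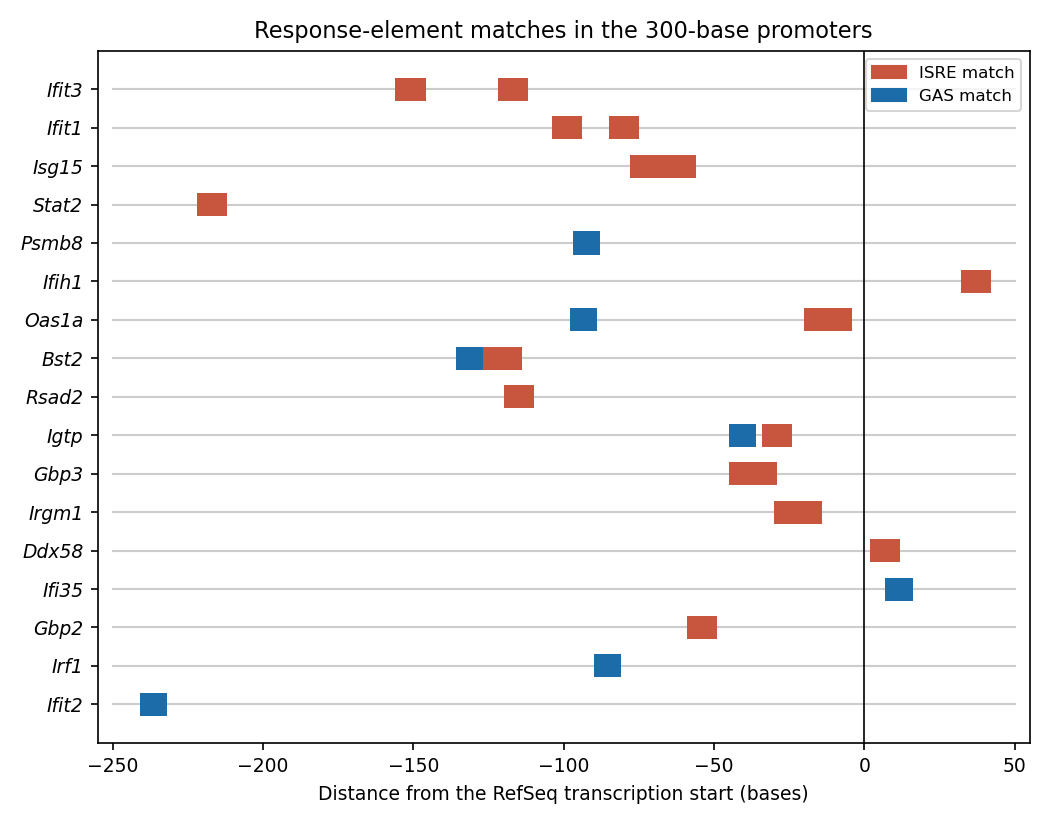
Positions of ISRE and GAS matches in the promoters of the 17 members with a match, in bases from the RefSeq transcription start (position 0), with genes ordered by fold from the bottom (lowest) to the top. ISRE matches lie between -222 and the start in 11 genes, the 3 genes at the top hold ISRE matches, and *Bst2*, *Igtp* and *Oas1a* hold both kinds.

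The ligands were not seen in these libraries. Of 21 interferon genes in the table, including *Ifnb1*, *Ifng* and the *Ifna* genes, 20 had 0 counts in both libraries and *Ifnz* had 1 count in dermal fibroblasts. A count of 0 allows up to 3 counts, which is 0.16 CPM in chondrocytes and 0.171 CPM in dermal fibroblasts.

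Of the 6 receptor chains, 1 was over 2-fold higher in dermal fibroblasts and 0 in chondrocytes. Over all genes with at least 10 counts the shares were 16.2% and 11.8%. *Ifnar1* had 1204 counts in chondrocytes against 1515 in dermal fibroblasts (1.23-fold), *Ifnar2* had 585 and 743 (1.24-fold), and *Ifngr1* had 728 and 684 (0.915-fold). *Ifngr2*, the signalling chain of the gamma receptor, had 395 and 963 counts and was the receptor gene over 2-fold higher (2.37-fold, interval 2.11 to 2.68). *Il10rb*, shared by the lambda receptor, had 240 and 421 counts (1.71-fold), and *Ifnlr1* had 8 and 5, too few to show a difference.

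Of the kinases and the STAT3 factor, *Jak1* had 3381 counts in chondrocytes against 9984 in dermal fibroblasts (2.88-fold, interval 2.76 to 2.99). *Tyk2* (1.78-fold), *Stat3* (1.57-fold) and *Jak2* (1.49-fold) were higher but under 2-fold.

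Of 15 genes that sense nucleic acids and induce interferon, 4 were over 2-fold higher in dermal fibroblasts, 0 were over 2-fold higher in chondrocytes, and the median fold was 1.47. Over all genes with at least 10 counts the shares past 2-fold were 16.2% and 11.8%. *Zbp1*, a sensor of Z-form nucleic acid that is itself stimulated by interferon, had 4 counts in chondrocytes against 722 in dermal fibroblasts and was 176-fold higher (interval 68.3 to 647). *Tmem173* (STING) was 3.90-fold higher with 256 and 1026 counts, and *Eif2ak2* (PKR) was 3.32-fold higher with 421 and 1437. *Tlr7* was 4.22-fold higher with 18 and 78 counts. *Irf3*, the factor that acts before interferon is made, had 593 and 696 counts (1.14-fold), and *Myd88* had 848 and 1080 (1.24-fold). *Traf3* was higher in chondrocytes, with 1120 and 769 counts, though under 2-fold.

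The 11 genes listed as restraining the response had a median fold of 0.946, with 1 over 2-fold higher in each cell type. Over all genes with at least 10 counts, 16.2% were over 2-fold higher in dermal fibroblasts and 11.8% in chondrocytes. The list of 11, and so its median, includes *Isg20*, an interferon-stimulated gene by name. *Isg20* was lower in dermal fibroblasts (189 and 123 counts, 0.634-fold, interval 0.501 to 0.799) and was not counted with the interferon-stimulated genes. *Adar*, which edits self RNA, was 2.44-fold higher in dermal fibroblasts (708 and 1776 counts), and *Ptpn2*, a phosphatase of JAK1, was 2.11-fold higher in chondrocytes (916 and 446 counts). *Ptpn11* had 3519 and 4080 counts, and *Samhd1* had 2310 and 1274 (0.537-fold). *Usp18*, counted above, is also such a brake.

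A further 52 interferon-stimulated genes outside the 32 were examined. They do not cover every such gene, because genes placed in the other lists were left out. Among those left out were *Isg20* (0.634-fold), *Samhd1* (0.537-fold) and *Zbp1* (176-fold). Of the 52, 40 were over 2-fold higher in dermal fibroblasts, 0 were over 2-fold higher in chondrocytes, and the median fold was 4.31. Among the 45 with at least 10 counts in either library, 38 were over 2-fold higher in dermal fibroblasts, against 16.2% of all such genes. Some of the 45 passed that filter only through dermal fibroblasts, so the filter all but set their direction. *Ifitm1* (4 and 110 counts) and *Ifit3b* (6 and 106) are examples. The median fold of the 45 was 4.95. The most abundant were *Lgals3bp* (2283 and 14639 counts, 6.24-fold), *Ifitm3* (2312 and 10240, 4.31-fold) and *Ifitm2* (2514 and 5798, 2.25-fold). An ISRE core was found in 21 of the 39 with a promoter (53.8%).

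**Figure D4:**
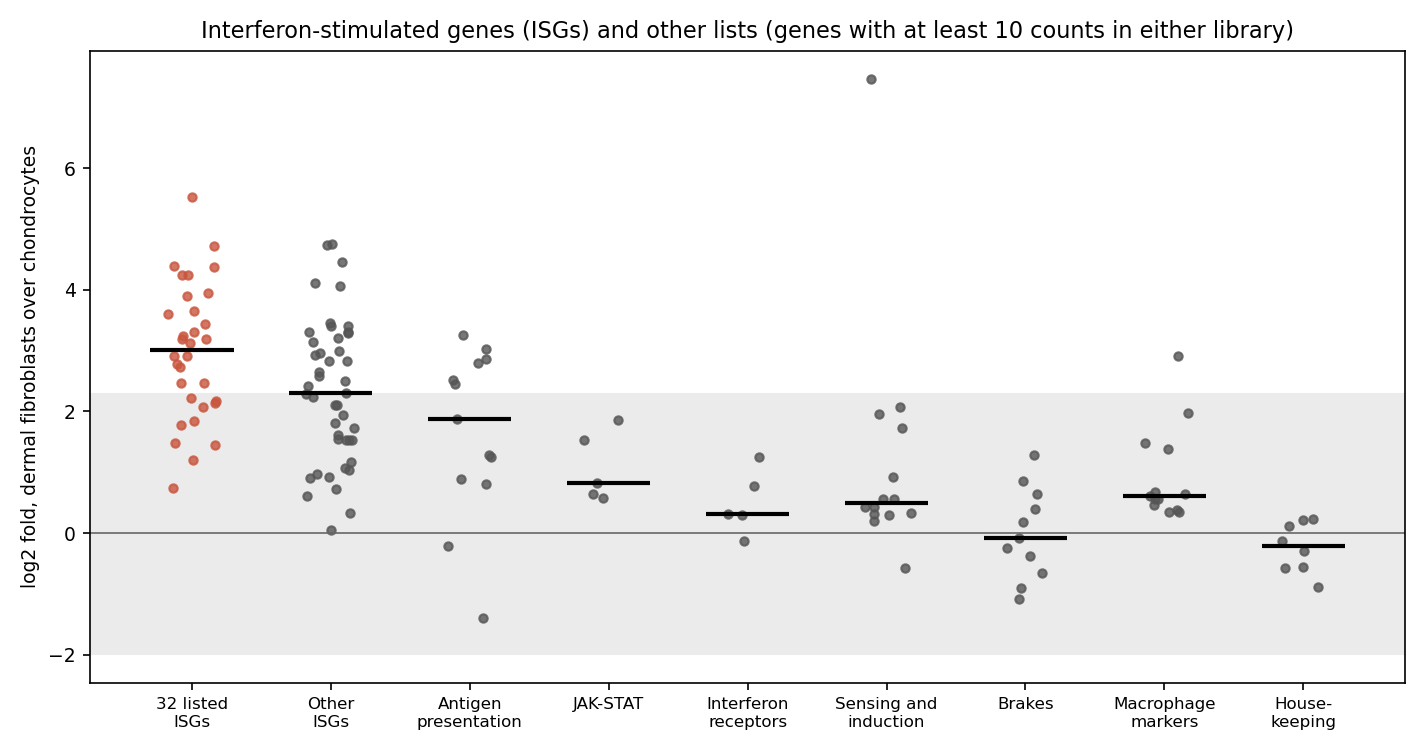
Log2 fold, dermal fibroblasts over chondrocytes, of each gene (point) of 9 lists, with the list's median as a black bar, for genes with at least 10 counts in either library. The grey band spans the 5th to 95th percentile of all such genes (-1.99 to 2.28); the median of the 32 genes (3.01) lies above the band, and that of the brakes (-0.08) lies within it.

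Marker transcripts of other cell types also differed between the libraries, and in bulk RNA fewer cells of a type and less RNA per cell cannot be told apart. For the counts below, the shares of all genes with at least 10 counts were 16.2% over 2-fold higher in dermal fibroblasts and 11.8% in chondrocytes. Of 15 macrophage markers, 4 were over 2-fold higher in dermal fibroblasts and 0 in chondrocytes, and their summed counts were 2519 and 4466 (1.73-fold), with *Lyz2* at 1046 and 1639, *Cd68* at 423 and 600, and *Mrc1* at 157 and 635. *Ptprc*, the marker of all leukocytes, had 50 and 76 counts. Of 9 endothelial markers, 7 were over 2-fold higher in dermal fibroblasts (summed counts 320 and 1059, 3.22-fold), the most abundant being *Kdr* with 70 and 276 counts. Of 8 keratinocyte markers, 5 were (171 and 5103, 29.1-fold), the most abundant being *Krt14* with 17 and 1939 counts. The 10 lymphoid and plasmacytoid markers summed to 11 and 25 counts, and 6 of them, *Cd3e*, *Cd8a* and *Siglech* among them, were at 0 in both. Of 13 skeletal muscle markers, 5 were over 2-fold higher in chondrocytes and 0 in dermal fibroblasts, with summed counts of 36449 and 26486. The most abundant of them, *Actc1*, had 7288 and 7970 counts. The 32 interferon-stimulated genes had a summed fold of 6.36. The part of these other cells in that result was not tested.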

How the data were processed

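The authors made stranded mRNA libraries, sequenced them as 75 bp single-end reads (base calls by CASAVA 1.8.2) and mapped them to mm10 with TopHat2 2.0.13, Bowtie2 2.2.3 and SAMtools 0.1.19. They deposited raw read counts per gene symbol, 1 column per cell type. The counting program, its annotation and its strand setting are not given in the sources used here, so reads of overlapping genes may be misassigned. All value columns matched a sample. In 27 rows the symbol had become a date, none of them a member.

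Scaling used edgeR 4.0.16 TMM factors (0.954 and 1.05) in R 4.3.3, and an alternative used DESeq2 1.42.0 size factors. Folds, 95% Clopper-Pearson counting intervals, RPKM and motif searches came from scripts in Python 3.11.15 that use scipy 1.17.1 for the intervals, pandas 2.3.3 and numpy 2.4.6. The calculations were tested on simulated data. No molecular identifiers are described, so a read is not an independent molecule. Gene positions and promoters are RefSeq GRCm38.p6, the build of mm10, and lengths are GENCODE vM1. All 32 members are named, and of the other lists the 3 most abundant genes, the receptor and JAK genes, *Stat3* and *Irf3*, while other genes were named after their values were seen. The members and lists were chosen with earlier results of these data known. ATAC-Seq and ChIP-Seq data were not analysed here. Some results are not reported here.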

Additional observations from a re-analysis of the deposited data

How the results depend on the processing

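No paired analysis was possible because neither cell type had a second library. The alternatives each changed a single choice. The number of the 32 genes over 2-fold higher in dermal fibroblasts was 31 under each of 6 scalings (TMM, total counts, DESeq2 size factors, upper quartile, total counts without the 10 most abundant genes, and *Actb*), with a floor of 1 count and with a pseudocount of 1. It was 30 with a floor of 10 counts, under which *Mx1* was 1.655-fold higher. A fold over 1.5 took in 32. The number was 0 for chondrocytes throughout. The median log2 fold ranged from 2.89 to 3.15. Of 256 values of single genes, 0 changed direction and 2 left the counting interval. *Mx1* fell below its interval with the floor of 10 counts, and *Trim25* (3.01-fold with total counts) rose over its interval. Over all genes, total counts shifted the median log2 fold by 0.14 and *Actb* by -0.12. The depth limits *Mx1*, *Oas2* and *Ifit3*, which had under 10 counts in chondrocytes.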

Other observations

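MHC class I and its loading complex, beyond the *Psmb8*, *Psmb9* and *Tap1* genes described above, were mostly higher in dermal fibroblasts. Of 16 genes of antigen presentation, class II genes included, 9 were over 2-fold higher in dermal fibroblasts, *Cd74* of class II among them. All 9 were among the 13 with at least 10 counts in either library, against 16.2% of all such genes. The class II gene *H2-Eb1*, with 23 and 9 counts, was the 1 over 2-fold higher in chondrocytes. *B2m*, the light chain of class I, had 2516 counts in chondrocytes against 14800 in dermal fibroblasts (5.73-fold, interval 5.49 to 5.98). *H2-K1* had 333 and 2386 counts (6.98-fold), *Tapbp* had 1130 and 2839 (2.45-fold), and *Nlrc5*, the activator of class I genes, had 51 and 499 (9.53-fold, interval 7.13 to 12.97). The class I gene *H2-T23* had 68 and 60 counts. *Ciita*, the activator of class II genes, had 4 and 2 counts, and the class II genes *H2-Aa* and *H2-Ab1* had at most 6 counts in a library, while *Cd74*, the invariant chain, had 53 and 441. Apart from *B2m*, *Tapbp* and *H2-K1*, these genes were named after their values were seen.

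Among 10 immediate-early and stress genes, which respond to tissue dissociation, the median fold was 1.12. Of these, 1 (*Fos*, 325 and 936 counts) was over 2-fold higher in dermal fibroblasts and 3 were over 2-fold higher in chondrocytes, *Dusp1* with 2560 and 810 counts among them. Over all genes with at least 10 counts the shares were 16.2% and 11.8%. The most abundant of the 10, *Egr1*, had 3900 and 5319 counts (1.33-fold), and *Junb* had 1770 and 2205 (1.21-fold). The 8 housekeeping genes had a median fold of 0.864, none of them over 2-fold in either direction.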
